A study of Drosophila melanogaster with 6 samples.

Results

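The cytochrome P450 genes of family 4, of the mitochondrial families and of several small families that surround them were followed in *Drosophila melanogaster* larvae lacking pyruvate kinase. They were taken by FlyBase symbol, as every gene whose symbol starts with Cyp4, Cyp12, Cyp49, Cyp301, Cyp303, Cyp304, Cyp305, Cyp307, Cyp311, Cyp312, Cyp313, Cyp316 or Cyp318. The symbols matched 45 of the 17869 genes in the count tables, and no symbol started with Cyp307. One match, *Cyp40*, encodes a cyclophilin and not a P450, so the account below is of 44 P450 genes. They comprise 22 genes of family 4, 9 genes of the mitochondrial families (Cyp12, Cyp49 and Cyp301), 10 genes of the other clan 4 families (Cyp311, Cyp312, Cyp313, Cyp316 and Cyp318) and 3 genes of clan 2 (*Cyp303a1*, *Cyp304a1* and *Cyp305a1*).

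Cytochrome P450s are heme enzymes that insert oxygen into fatty acids, steroids and foreign compounds. Most insect P450s, family 4 included, sit in the endoplasmic reticulum and take electrons from the NADPH-cytochrome P450 reductase Cpr, while the mitochondrial families take them from adrenodoxin reductase through a ferredoxin. Family 4 enzymes are best known as fatty acid hydroxylases, and its member Cyp4g1 instead catalyzes the final step of cuticular hydrocarbon synthesis in oenocytes. The mitochondrial enzymes that make ecdysone carry other symbols (*dib*, *sad*, *shd*) and are not among the genes described here.

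RNA-seq was run on whole second-instar (L2) larvae of 2 genotypes, with 3 libraries each. The controls were *Pyk* 23/+ and so carried 1 mutant copy of the pyruvate kinase gene *Pyk*, and the mutants were *Pyk* 23/31, a combination of a pair of frameshift deletions made with CRISPR/Cas9. Mutants of this kind die during the L2 stage, larvae of both sexes were mixed, and the study calls the libraries biological replicates without saying for the RNA how they were kept apart. The p-values therefore measure the spread between these libraries. In RNA from whole larvae, fewer cells of a type and less RNA per cell cannot be told apart.

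The libraries held between 11249487 and 16029304 read pairs assigned to genes. *Pyk* itself was at 465, 442 and 419 CPM (counts scaled to a common library size) in the controls and at 53.7, 44.0 and 57.7 CPM in mutants. The level thus separated the libraries by their labelled genotype. Replicate 3 of each genotype stood apart. On the first principal component the controls lay at -62.3, -59.1 and -10.9 and the mutants at 52.9, 55 and 24.4, so control 3 and mutant 3 were the libraries of each genotype nearest to the other genotype. Of the 6 markers listed for epidermis and molt, 5 (*Osi6*, *Osi7*, *Osi15*, *Osi20* and *TwdlT*) were tested and did not pass, and the sixth, *resilin*, was at 0 to 4 counts. In those 5, control 3 lay above the other controls and mutant 3 below the other mutants, and the 6 had summed levels of 1.59, 1.29 and 120 CPM in controls against 1670, 3820 and 128 CPM in mutants. Values below are given for the controls and then for the mutants, each in the order of replicates 1, 2 and 3, and values without replicate 3 are given where that replicate stood apart in a gene and the call or the size turned on it.

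Of the 44 P450 genes, 38 had at least 12 counts over the 6 libraries and were tested. The 6 others were *Cyp303a1* with 11 counts, *Cyp316a1* with 8, *Cyp313a2* and *Cyp313a5* with 5 each, *Cyp313a1* with 2 and *Cyp12d1-d* with 0. A count of 3 corresponded to between 0.185 and 0.272 CPM, so lower levels of these genes rest on very few reads. *Cyp303a1*, which is needed for sensory organ development, lies on the strand opposite to *heix*, and the reads over it came mostly from that other strand.

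More of these P450 genes rose than fell in the mutants. In the quasi-likelihood test of edgeR, with p-values adjusted by the Benjamini-Hochberg method over 11422 genes, 15 of the 38 rose (39.5%) and 5 fell (13.2%) at an adjusted p of at most 0.05. Over all tested genes 22.2% rose and 26.0% fell. With a change of at least 2-fold as well, 7 of the 38 rose (18.4%) and 1 fell (2.63%), beside 5.25% and 2.25% of all tested genes. Without control 2, 9 of the 38 rose, beside 1840 of the 11289 genes then tested. By at least 2-fold, 4 of the 38 rose in that setting, beside 389 of all genes. Without control 1, 4 again rose by at least 2-fold, beside 402 of 11312 genes. The median log2 fold change was 0.32 for the 38 genes and 0.015 for all tested genes. In 15 of the 38 every mutant library lay above every control library, against 29.4% of all tested genes, and in 7 every mutant lay below every control, against 31.5%.

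**Figure D1:**
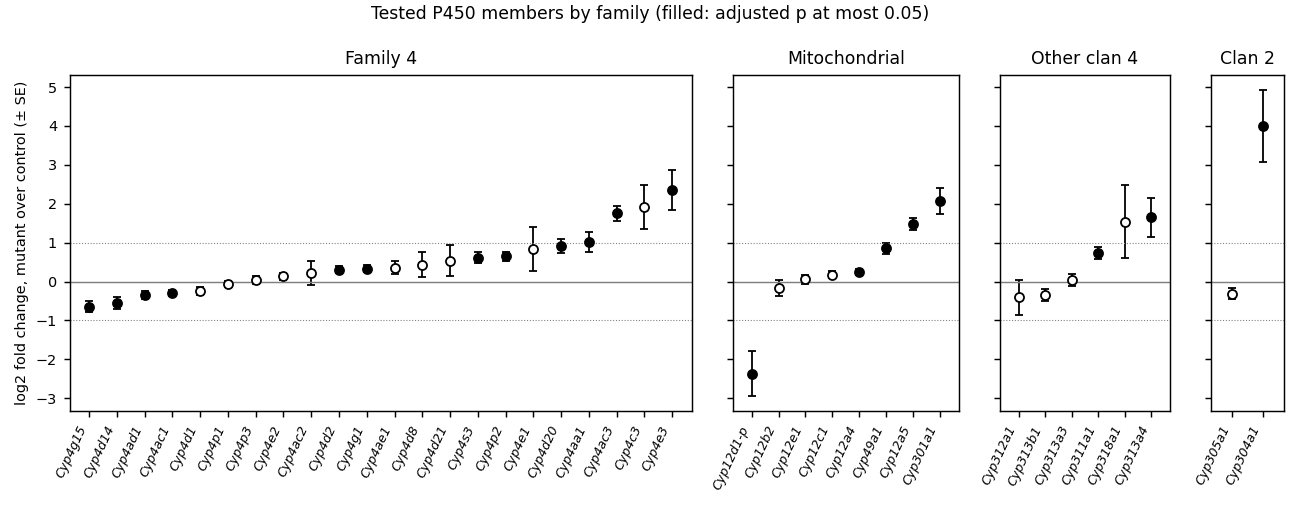
The log2 fold change of each tested P450 gene (mutant over control, ± SE derived from the F statistic of edgeR), grouped by family. Filled circles had an adjusted p of at most 0.05, and dotted lines mark a 2-fold change. Family 4 holds 8 filled circles above 0 and 4 below, where 22.2% of all tested genes rose and 26.0% fell at that threshold. The points farthest from 0 are *Cyp304a1* at 4.0 and *Cyp12d1-p* at -2.37.

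The summed level of the 44 genes was 904, 907 and 1001 CPM in controls against 1282, 1225 and 1342 CPM in mutants. Every mutant lay above every control, and the means of 937 ± 55.4 and 1283 ± 58.6 CPM (SD, n = 3) differed by a factor of 1.37. Family 4 contributed most of it, with 656 ± 70.4 CPM in controls against 882 ± 86.9 CPM in mutants. The mitochondrial families went from 239 ± 13.9 to 348 ± 15.4 CPM, a factor of 1.46. *Cyp4c3* alone accounted for 3.8%, 3.58% and 8.69% of the summed level in the controls and for 14.8%, 10.4% and 19.9% in the mutants. The share of *Cyp4e2* went the other way, from 11%, 10.6% and 10.2% to 8.12%, 8.12% and 9.12%.

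Per kilobase of exon, the P450 gene with the highest level in the controls was *Cyp12a4*, at 82.0 ± 7.18 CPM per kb. *Cyp4g1* followed at 68.3 ± 8.97 and *Cyp4e2* at 52.3 ± 1.62 CPM per kb. The ranges of *Cyp12a4* and *Cyp4g1* (mean ± SD) touched, while *Cyp4e2* lay below both. *Cyp4ac1* (33.9 ± 1.90), *Cyp4p3* (31.4 ± 1.81), *Cyp4c3* (26.9 ± 16.3) and *Cyp4d1* (25.6 ± 1.59 CPM per kb) came next, and *Cyp4c3* was too variable to be placed among them. In the mutants *Cyp4c3* had the highest mean, 102 ± 36.6 CPM per kb, with *Cyp12a4* at 97.4 ± 4.05 and *Cyp4g1* at 86.0 ± 4.96 CPM per kb within its spread. *Cyp12a5* went from 12.6 ± 2.42 to 35.2 ± 3.35 CPM per kb, above *Cyp4p3* (32.3 ± 4.45) and *Cyp4ac1* (27.6 ± 1.06) in the mutants by a margin inside the spread for *Cyp4p3*.

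Within family 4, all 22 genes were tested, and 8 rose (36.4%), 4 fell (18.2%) and 10 did not pass. Over all tested genes 22.2% rose and 26.0% fell. *Cyp4ac3* had the smallest adjusted p of all 38 genes. It was at 2.30, 1.80 and 1.82 CPM in controls against 5.54, 7.80 and 6.75 CPM in mutants, a log2 change of 1.75 (SE 0.20, adjusted p = 0.0001). *Cyp4e3* had very few reads in the controls, with 2, 4 and 3 counts, and reached 12, 26 and 21 counts in mutants. Its log2 fold change was 2.36 (SE 0.51, adjusted p = 0.0042), and the groups did not overlap for either gene. *Cyp4aa1* was at 14.9, 14.0 and 23.3 CPM in controls against 34.2, 28.4 and 42.3 CPM in mutants, where replicate 3 was the highest library of each genotype. Its log2 fold change of 1.01 (adjusted p = 0.026) did not hold at the threshold without control 1 (0.90, adjusted p = 0.085), control 2 (0.86, adjusted p = 0.070), mutant 1 (1.02, adjusted p = 0.069) or mutant 3 (0.85, adjusted p = 0.059). It held without control 3 (1.26, adjusted p = 0.0010) and without both replicate 3 libraries (1.11, adjusted p = 7.5e-05).

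*Cyp4d20*, *Cyp4p2* and *Cyp4s3* rose by less than 2-fold with no overlap between the groups. *Cyp4d20* was at 6.10, 5.49 and 7.35 CPM in controls against 9.54, 11.6 and 14.7 CPM in mutants (log2 fold change 0.92, adjusted p = 0.0023). *Cyp4p2* was at 14.5, 12.7 and 18.4 CPM and then at 23.6, 23.9 and 23.8 CPM, so the mutant libraries were nearly equal (0.65, adjusted p = 0.0021). *Cyp4s3* was at 32.2, 39.9 and 48.6 CPM and then at 66.1, 58.9 and 59.1 CPM (0.61, adjusted p = 0.0099). These 3 genes passed the test in all 14 alternative settings that were tried. *Cyp4d2* moved little, from 13.4, 13.8 and 13.8 CPM to 15.8, 16.9 and 17.8 CPM (0.30, adjusted p = 0.021), and it did not pass without control 1 (adjusted p = 0.081), control 2 (adjusted p = 0.068), control 3 (adjusted p = 0.051) or mutant 3 (adjusted p = 0.059), nor without both replicate 3 libraries (adjusted p = 0.094) or with DESeq2 (adjusted p = 0.084).

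*Cyp4g1*, the oenocyte enzyme, was at 142, 146 and 179 CPM in controls against 205, 199 and 183 CPM in mutants. The groups did not overlap, but control 3 and mutant 3 were nearly equal. The log2 fold change was 0.33 (SE 0.094, adjusted p = 0.015), and it was 0.26 without control 1 (adjusted p = 0.077), 0.28 without control 2 (adjusted p = 0.072) and 0.30 without mutant 1 (adjusted p = 0.059). Without both replicate 3 libraries it was 0.48 (adjusted p = 0.00023). Of 6 oenocyte markers listed, 5 were matched by symbol, of which 2 rose and 2 fell, and all 5 are also in the list of hydrocarbon synthesis genes given below. Their summed level was 273, 262 and 293 CPM in controls and at least 281 CPM in each mutant, so the groups overlapped. The part of oenocyte number in the *Cyp4g1* value was not tested.

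A smaller group of 4 genes of family 4 fell, each by less than 2-fold. *Cyp4g15*, a paralog of *Cyp4g1* expressed in the nervous system, was at 9.02, 7.89 and 10.2 CPM in controls against 5.72, 5.93 and 5.62 CPM in mutants (log2 fold change -0.65, SE 0.14, adjusted p = 0.0033). The groups did not overlap and the mutants were nearly equal. Of 5 nervous system markers, 3 rose and 1 fell, the glial gene *repo* (-1.57, adjusted p = 0.00032), and their summed level was 237, 244 and 270 CPM in controls against 299, 297 and 349 CPM in mutants. The part of these cells in the *Cyp4g15* value was not tested. *Cyp4d14* was at 10.5, 11.8 and 9.44 CPM and then at 6.03, 7.95 and 7.75 CPM (-0.55, adjusted p = 0.012). *Cyp4ad1* was at 26.3, 26.0 and 26.1 CPM and then at 21.3, 17.5 and 22.7 CPM (-0.35, adjusted p = 0.017). *Cyp4ac1* was at 54.0, 60 and 55.3 CPM and then at 48.1, 45 and 45.1 CPM (-0.29, adjusted p = 0.0079).

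**Figure D2:**
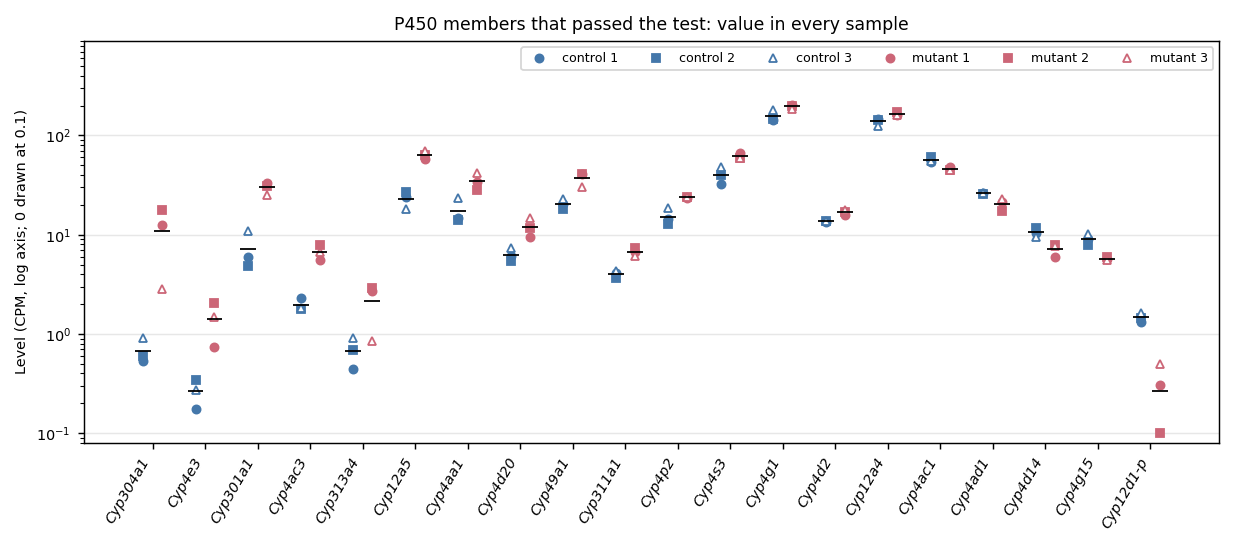
The level of each P450 gene that passed the test, in CPM on a log axis, with 1 symbol per library (blue controls, red mutants, open triangles replicate 3) and a bar at the group mean. The open triangles of *Cyp304a1* and *Cyp313a4* lie far below the other mutant symbols, and those of *Cyp301a1* and *Cyp4aa1* lie above the other controls.

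*Cyp4c3* had one of the widest differences in family 4 and did not pass the test. It was at 34.3, 32.4 and 87.1 CPM in controls against 190, 127 and 267 CPM in mutants. Replicate 3 was the highest library of each genotype, at 2.61 times the mean of the other controls and 1.68 times the mean of the other mutants, and the groups did not overlap. The log2 fold change was 1.92 (SE 0.57), with an adjusted p of 0.053. Without control 3 it was 2.53 (adjusted p = 0.017), and without both replicate 3 libraries it was 2.24 (adjusted p = 0.0081). Leaving out any other single library gave an adjusted p between 0.074 and 0.14, with a log2 fold change of 1.63 without mutant 3. The gene lies on chromosome 3R from 30894038 to 30900688 (BDGP6).

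*Cyp4d1* was likewise at the edge of the threshold, at 61.1, 59.9 and 54.3 CPM in controls against 53.5, 51.4 and 42.5 CPM in mutants (log2 fold change -0.25, adjusted p = 0.054). The groups did not overlap, and the gene passed without control 3 (-0.32, adjusted p = 0.026) or mutant 1 (-0.31, adjusted p = 0.041). The remaining 8 genes of family 4 overlapped between the genotypes. *Cyp4e2*, among the most abundant, was at 99.1, 96.2 and 102 CPM in controls against 104, 99.5 and 122 CPM in mutants (0.13, adjusted p = 0.22). *Cyp4p3* was at 50.7, 50.5 and 55.8 CPM and then at 51.2, 48.0 and 62.1 CPM, and *Cyp4p1* at 33.6, 31.4 and 35.6 CPM and then at 32.1, 30.4 and 33.1 CPM. Their log2 fold changes were 0.04 (adjusted p = 0.77) and -0.07 (0.45). *Cyp4ae1* (0.36, adjusted p = 0.10), *Cyp4d8* (0.43, adjusted p = 0.29), *Cyp4e1* (0.84, adjusted p = 0.24), *Cyp4ac2* (0.22, adjusted p = 0.59) and *Cyp4d21* (0.54, adjusted p = 0.30) had mean levels of at most 5.14 CPM in either genotype. *Cyp4d8* passed without mutant 3 (0.71, adjusted p = 0.043), and *Cyp4e1* passed without mutant 1 (1.29, adjusted p = 0.031).

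Among the mitochondrial families, 8 of 9 genes were tested, and 4 rose (50.0%), 1 fell (12.5%) and 3 did not pass. The shares over all tested genes were 22.2% and 26.0%. *Cyp12a5* rose from 24.1, 26.8 and 18.2 CPM to 58.0, 64.0 and 70.2 CPM, a log2 change of 1.48 (SE 0.15, adjusted p = 0.00017). Control 3 was the lowest control and mutant 3 the highest mutant. *Cyp301a1*, which acts in formation of the adult cuticle, was at 5.93, 4.81 and 10.8 CPM in controls against 33.5, 31.2 and 25.3 CPM in mutants. Here replicate 3 was the highest control and the lowest mutant, and the groups did not overlap (2.07, SE 0.33, adjusted p = 0.0060). Without both replicate 3 libraries the value was 2.58 (adjusted p = 1.1e-06). *Cyp49a1* was at 20.6, 18.1 and 22.8 CPM and then at 40.6, 40.5 and 30.0 CPM, again with mutant 3 the lowest mutant (0.85, SE 0.14, adjusted p = 0.0012). Without both replicate 3 libraries its value was 1.06 (adjusted p = 2.9e-05), above 2-fold, and without mutant 3 it was 0.99 (adjusted p = 0.00016). Leaving out any other single library gave 0.76 to 0.92.

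*Cyp12a4*, whose overexpression gives resistance to the insecticide lufenuron, was at 148, 144 and 125 CPM in controls against 160, 173 and 162 CPM in mutants. The difference was small and without overlap (log2 fold change 0.25, SE 0.077, adjusted p = 0.023). It did not pass without control 2 (0.26, adjusted p = 0.064), control 3 (0.16, adjusted p = 0.095) or mutant 2 (0.22, adjusted p = 0.073), nor without both replicate 3 libraries (0.18, adjusted p = 0.052). *Cyp12d1-p*, one copy of a xenobiotic-inducible pair, fell. It had 15, 17 and 18 counts in controls against 5, 0 and 7 counts in mutants, a log2 change of -2.37 (SE 0.57, adjusted p = 0.0071). It was -1.86 without mutant 2 (adjusted p = 0.0059) and -3.04 without mutant 3 (adjusted p = 0.0053). Its near-identical copy *Cyp12d1-d* was at 0 in every library, and since pairs that align equally well to both copies are not counted, the level of either is uncertain. *Cyp12c1* (0.18, adjusted p = 0.16), *Cyp12b2* (-0.17, adjusted p = 0.53) and *Cyp12e1* (0.05, adjusted p = 0.73) did not pass, and *Cyp12c1* did without mutant 3 (0.27, adjusted p = 0.028).

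The clan 2 gene *Cyp304a1* had the highest fold change of the 38 genes. It had 6, 7 and 10 counts in controls against 202, 227 and 40 counts in mutants, or 0.531, 0.601 and 0.908 CPM against 12.4, 17.7 and 2.84 CPM. Mutant 3 was at 0.189 times the mean of the other mutants but still above every control. The log2 fold change was 4.0 (SE 0.93, adjusted p = 0.025). The call was lost, with the direction kept, without control 1 (3.84, adjusted p = 0.093), control 2 (3.91, adjusted p = 0.098), control 3 (4.24, adjusted p = 0.080) or mutant 1 (3.9, adjusted p = 0.059). It held without mutant 2 (3.49, adjusted p = 0.037), without mutant 3 (4.45, adjusted p = 2.2e-05) and without both replicate 3 libraries (4.69, adjusted p = 1.1e-05). *Cyp305a1* was at 17.6, 17.1 and 14.6 CPM and then at 14.2, 15.0 and 10.6 CPM (-0.31, adjusted p = 0.092), and it passed without control 3 (-0.40, adjusted p = 0.045).

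Of the other clan 4 families, 6 of 10 genes were tested and 2 rose (33.3%), beside 22.2% of all tested genes. *Cyp311a1*, known from lipid metabolism of the larval anterior midgut, was at 4.07, 3.69 and 4.36 CPM in controls against 6.65, 7.41 and 6.11 CPM in mutants, with no overlap (log2 fold change 0.73, SE 0.15, adjusted p = 0.0028). *Cyp313a4* was at 0.442, 0.686 and 0.908 CPM and then at 2.71, 2.89 and 0.853 CPM, so mutant 3 lay among the controls. Its log2 fold change of 1.65 (SE 0.50, adjusted p = 0.025) did not pass without control 1 (1.42, adjusted p = 0.10), control 2 (1.65, adjusted p = 0.087), mutant 1 (1.44, adjusted p = 0.078) or mutant 2 (1.40, adjusted p = 0.070). It passed without control 3 (1.89, adjusted p = 0.039), without mutant 3 (2.03, adjusted p = 0.0012) and without both replicate 3 libraries (2.27, adjusted p = 0.00074). *Cyp318a1* was likewise low in mutant 3, at 0.796, 0.686 and 0.272 CPM in controls against 1.48, 3.51 and 0.284 CPM in mutants. It did not pass (1.54, SE 0.94, adjusted p = 0.23). It passed without mutant 3 (2.04, adjusted p = 0.014), and without mutant 2 the value was 0.61 (adjusted p = 0.51). *Cyp313b1* (-0.35, adjusted p = 0.079), *Cyp312a1* (-0.40, adjusted p = 0.48) and *Cyp313a3* (0.05, adjusted p = 0.82) did not pass.

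In *Cyp304a1*, *Cyp313a4* and *Cyp318a1* mutant 3 was at 0.189, 0.305 and 0.114 times the mean of mutants 1 and 2. The epidermis and molt markers were lowest in mutant 3 among the mutants too (1670, 3820 and 128 CPM), but there control 3 was also far above the other controls, at 120 CPM against 1.59 and 1.29 CPM. Among these 3 genes, *Cyp318a1* was lower in control 3, at 0.367 times the other controls, while *Cyp304a1* and *Cyp313a4* were at 1.60 and 1.61 times. *Cyp301a1* was at 2.01 times in control 3 and at 0.782 times in mutant 3. The part of molt stage in these values was not tested.

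**Figure D3:**
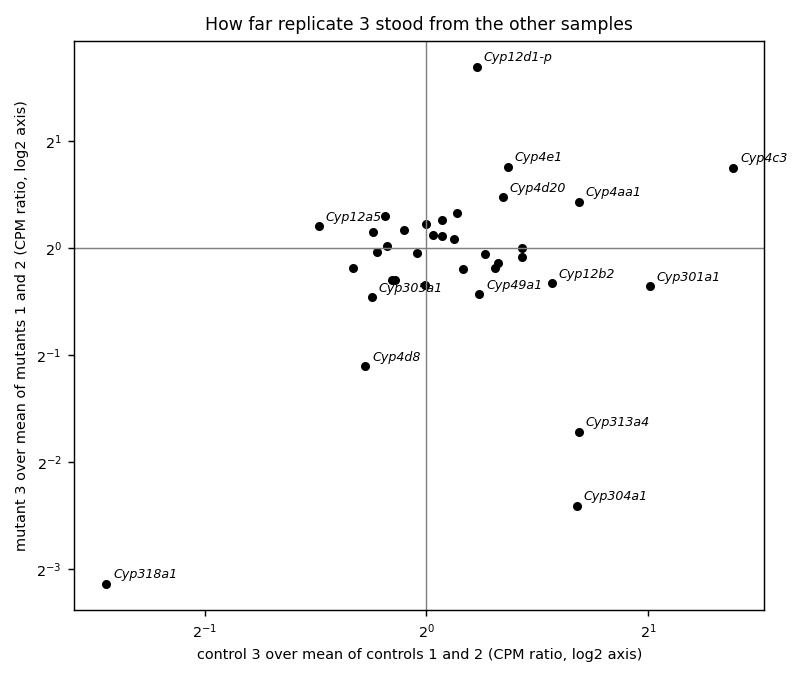
For 36 genes with a mean of at least 1 CPM in a genotype, the level in control 3 relative to controls 1 and 2 (x axis) and in mutant 3 relative to mutants 1 and 2 (y axis), both as CPM ratios on log2 axes. Most points lie near the crossing of the lines at 1, while *Cyp4c3* lies to the right at 2.61 and *Cyp318a1*, *Cyp304a1* and *Cyp313a4* lie lowest, at 0.114, 0.189 and 0.305. *Cyp12d1-p*, with few counts, lies highest at 3.23.

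Many of these genes lie side by side, 24 of the 44 in 9 clusters in which neighbours were at most 15000 bp apart. Neighbours did not all move together. In the cluster on 2L (5264001 to 5270329, BDGP6), *Cyp4ac1* fell, *Cyp4ac2* did not pass and *Cyp4ac3* rose, although gaps of only 492 and 42 bp part them. On 3R (19132648 to 19137136), *Cyp12a5* rose by more than 2-fold and *Cyp12a4*, 453 bp downstream on the same strand, by a factor of 1.19. On X (2173415 to 2178728), *Cyp4d14* fell and *Cyp4d2*, 690 bp away on the other strand, rose.

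The ratio of the counts of adjacent tested genes was compared for 11 pairs, since it does not depend on how the libraries are scaled. In 6 pairs the groups did not overlap, each with p = 0.1 in a two-sided exact permutation test, the smallest value 3 against 3 libraries allow, and 0.183 after Benjamini-Hochberg adjustment over the 11 pairs. Over all single genes tested, 29.4% were higher and 31.5% lower without overlap, and the count of pairs was not above these shares together. The share over other gene pairs was not computed. The ratio of *Cyp12a5* to *Cyp12a4* was 0.162, 0.186 and 0.145 in controls against 0.362, 0.370 and 0.432 in mutants, a difference of 1.24 on the log2 scale. The ratio of *Cyp4ac2* to *Cyp4ac3* was 0.500, 0.476 and 0.550 in controls against 0.189, 0.190 and 0.147 in mutants (-1.54). Every mutant lay outside the control range by a wide margin for both pairs. The ratio of *Cyp4d14* to *Cyp4d2* was 0.788, 0.851 and 0.684 and then 0.383, 0.470 and 0.434 (-0.85), and that of *Cyp4p2* to *Cyp4p1* was 0.432, 0.404 and 0.518 and then 0.736, 0.787 and 0.720 (0.74). The ratios of *Cyp4ac1* to *Cyp4ac2* (-0.51) and of *Cyp4ad1* to *Cyp4e2* (-0.49) were lower in every mutant. In the other 5 pairs the groups overlapped, with p between 0.3 and 0.8. One of them was *Cyp4p1* and *Cyp4p3*, at 0.663, 0.621 and 0.637 in controls against 0.627, 0.634 and 0.532 in mutants.

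**Figure D4:**
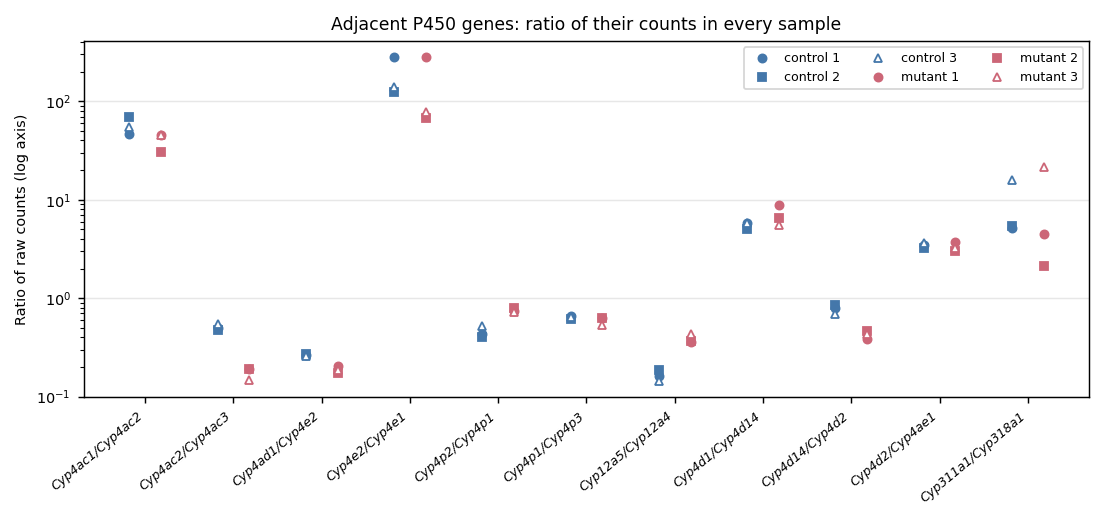
The ratio of raw counts of adjacent P450 genes in each library (log axis), with blue controls, red mutants and open triangles for replicate 3. Red and blue symbols are apart for *Cyp12a5*/*Cyp12a4*, where the mutants lie at 0.362 to 0.432 and the controls at 0.145 to 0.186, and mixed for *Cyp4p1*/*Cyp4p3*.

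The genes for the electron donors did not all move in 1 direction. *Cpr*, the reductase that serves the P450s of the endoplasmic reticulum, was at 276, 278 and 292 CPM in controls against 410, 333 and 390 CPM in mutants (log2 fold change 0.42, SE 0.081, adjusted p = 0.0020). *dare*, the adrenodoxin reductase that serves the mitochondrial P450s, was at 32.8, 31.4 and 28.5 CPM and then at 24.4, 23.2 and 23.6 CPM (-0.38, SE 0.080, adjusted p = 0.0033). *Fdx1*, a mitochondrial ferredoxin, was at 13.5, 12.9 and 14.3 CPM and then at 9.85, 10.9 and 9.38 CPM (-0.43, SE 0.11, adjusted p = 0.0082). Thus *Cpr* was higher, and *dare* and *Fdx1* lower, in every mutant library. The other 3 genes of this list of 6 did not pass, with log2 fold changes of 0.06 to 0.07.

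Of 15 listed genes of fatty acid elongation and hydrocarbon synthesis, the pathway that ends at Cyp4g1, 14 were tested. Of these 4 rose and 2 fell, with a median log2 fold change of 0.37. Over all tested genes 22.2% rose and 26.0% fell. The fatty acid synthase gene *FASN2* rose by 0.66 (adjusted p = 9.4e-05) and the desaturase gene *Desat1* by 0.44 (adjusted p = 0.0054), both on the log2 scale. The elongase genes *eloF* (0.91, adjusted p = 0.020) and *Elo68beta* (1.78, adjusted p = 0.041) rose from levels below 2.1 CPM. The ketoacyl reductase gene *spidey* fell by 0.27 (adjusted p = 0.0065) and the fatty acyl reductase gene *FarO* by 0.71 (adjusted p = 0.0068). Of 13 listed regulators of detoxification and hormone response, 5 rose and 8 did not pass, with a median of 0.17. Those that rose were *cnc* (0.32, adjusted p = 0.0044) and its inhibitor *Keap1* (0.61, adjusted p = 0.0018), the ecdysone receptor *EcR* (0.89, adjusted p = 0.0010), *Jra* (0.59, adjusted p = 0.0038) and *kay* (0.29, adjusted p = 0.0050), which encode the fly Jun and Fos proteins.

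Of the other P450 genes with a Cyp symbol, 21 of 34 tested rose and 3 fell, with a median log2 fold change of 0.66. For these and the marker lists below, the shares over all tested genes were 22.2% higher and 26.0% lower. Their summed level was 1040, 1020 and 963 CPM in controls against 1740, 1700 and 1770 CPM in mutants. The difference between the families was not tested. Markers of several tissues were compared as well. Of 10 Malpighian tubule markers 7 rose, with summed levels of 335, 332 and 315 CPM in controls against 541, 475 and 569 CPM in mutants. Of 8 midgut markers 5 rose (1880, 2080 and 1670 CPM against 2620, 2270 and 2000 CPM), and of 5 tracheal markers 3 rose (1660, 1560 and 2340 CPM against 3650, 3040 and 3080 CPM). Of 5 tested fat body markers 2 rose and 1 fell, with sums of 12100, 10900 and 10400 CPM against 9690, 8380 and 10500 CPM, and *Fbp1* and *Lsp2* were near 0. Of 4 muscle markers 0 rose and 2 fell, and of 4 hemocyte markers 1 rose and 1 fell. The part of these tissues in the P450 values was not tested. *Cyp40*, the cyclophilin gene matched by its symbol, was at 21.1, 23.3 and 27.6 CPM in controls against 27.1, 24.3 and 23.1 CPM in mutants (0.05, adjusted p = 0.73).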

How the data were processed

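Poly(A) RNA libraries (TruSeq Stranded) of L2 larvae were sequenced as pairs. The deposited values were raw counts of read pairs per gene, 1 table per library, made by the authors with STAR on BDGP6 according to the submitters' processing notes (versions not given in the sources used here); only uniquely mapped pairs are counted. The study's own analysis used a separate Kallisto route, which was not used here. The third count column was taken. The opposite strand held 2.5% to 2.55% of the reads counted on both strands together. The 486 rows without a gene ID (0.0329% to 0.0461% of pairs) were left out of totals and tests.

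Genes with at least 12 counts over 6 libraries were fitted with edgeR 4.0.16 (TMM, robust quasi-likelihood, no covariate) in R 4.3.3, with Benjamini-Hochberg adjustment over 11422 genes and thresholds of 0.05 and 2-fold. The SE of a log2 fold change was its absolute value divided by the square root of the F statistic of that test. The code was checked on simulated counts. CPM used TMM-scaled totals, and CPM per kb divided by union exon length from the Ensembl annotation of BDGP6. Positions came from the same annotation. Symbols came from a separate list of gene names and, where that gave none, from the annotation. Alternatives used DESeq2 1.42.0, limma 3.58.1 (voom), library totals, other count filters, unstranded counts, a replicate block, and each library left out.

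Genes named with values were all that passed the test, the 10 with the highest CPM per kb and those above 1 CPM, with every other P450 gene given in short; from the lists of electron donors, hydrocarbon synthesis and regulators, genes that passed could be named. The markers named singly (*repo*, *Fbp1*, *Lsp2* and those of epidermis and molt) were chosen after their values were seen. The genes, lists and tests were chosen with earlier results of these data known.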

Additional observations from a re-analysis of the deposited data

Results flagged for a closer look

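Reads on the strand opposite to a P450 gene are outside the counts used above, and at 3 genes they were higher in every mutant library than in every control, with at least 10 such reads in each mutant. *Cyp318a1* and *Cyp4d1* also had more in every mutant, but at most 5 reads in any library. The share of all genes with such a difference on the opposite strand was not computed, so these counts cannot be called unusual. Opposite to *Cyp4e1* they averaged 15.1 CPM in the controls and 26.1 CPM in the mutants, over a gene that shares 82 exon bases with the maltase gene *Mal-A1*. *Mal-A1* itself was at 224, 214 and 149 CPM in controls against 391, 385 and 322 CPM in mutants (log2 fold change 0.91, adjusted p = 0.0088). With unstranded counts, which take in both strands, *Cyp4e1* passed (1.33, adjusted p = 0.030). Opposite to *Cyp4d14*, which fell on its own strand, the reads averaged 3.47 and 6.73 CPM, where the antisense RNA gene *asRNA:CR45479* shares 1629 bases. Opposite to *Cyp4s3* they averaged 0.822 and 1.77 CPM, where *Rab3-GEF* shares 461 bases. Whether these reads come from the overlapping genes was not tested.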

How the results depend on the processing

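Of the 20 P450 genes that passed, 11 passed in the same direction in all 14 settings, 7 did not pass in some setting, and *Cyp4d14* and *Cyp4e3* passed wherever they could be fitted. *Cyp4d14* and *Cyp4d2* got no value from unstranded counts, and *Cyp312a1*, *Cyp318a1*, *Cyp4e1* and *Cyp4e3* none under filterByExpr. Leaving out 1 library gave 9 to 16 genes that rose and 4 to 8 that rose by at least 2-fold, and both lowest counts came without control 2. Over the 11214 to 11312 genes tested in those settings, 1840 to 2579 rose and 389 to 799 rose by at least 2-fold. DESeq2 gave 15 higher and 5 lower and limma-voom 14 and 5. Over all 11422 genes DESeq2 gave 2497 higher and 2379 lower, and limma-voom 2651 and 2972. With voom, *Cyp304a1* (3.61, adjusted p = 0.10) and *Cyp313a4* (1.48, adjusted p = 0.11) did not pass. *Cyp4c3* passed with DESeq2 (1.95, adjusted p = 0.0014) and voom (2.02, adjusted p = 0.0070). Scaling by library totals moved the median of all genes from 0.015 to 0.072 and gave 16 and 5, beside 2939 and 2525 of all genes. Same-numbered libraries deviated from their group means with correlations of -0.314, -0.0956 and -0.31, so the numbers do not pair them. With the replicate block 15 genes rose and 7 fell, beside 2523 and 2919 of all 11422 genes. There *Cyp301a1* (2.12, adjusted p = 0.053) and *Cyp304a1* (3.81, adjusted p = 0.055) no longer passed. *Cyp4c3* (2.02, adjusted p = 0.0068), *Cyp318a1* (1.43, adjusted p = 0.030), *Cyp4d1* (-0.26, adjusted p = 0.019) and *Cyp305a1* (-0.32, adjusted p = 0.033) did pass with the block. No library correlated best with its own number. Signs turned only among genes that did not pass. *Cyp4ae1* was at -0.23 with unstranded counts. Without both replicate 3 libraries *Cyp4p3* was at -0.039, *Cyp12b2* at 0.13, *Cyp12e1* at -0.0011 and *Cyp313a3* at -0.14. In that setting 15 genes rose and 6 fell, beside 2674 and 2845 of all 11088 genes. With 1 library left out, *Cyp40* ranged from -0.045 to 0.14, *Cyp12b2* from -0.28 to 0.027, *Cyp12e1* from -0.065 to 0.17, *Cyp313a3* from -0.063 to 0.21 and *Cyp4p3* from -0.076 to 0.12. The causes were not tested. Counting depth limits *Cyp304a1*, *Cyp4e3*, *Cyp313a4* and *Cyp12d1-p*, each with under 60 control counts.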
